A study of Mus musculus with 2 samples.

Results

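Genes of the cell division cycle and of DNA replication were compared between livers of Bglu3 congenic mice and livers of C57BL/6 apoE-/- control mice. The gene set holds 40 genes, a list of symbols with no threshold on their values, drawn up with earlier results of these data known, and a gene was measured by every probe set whose only symbol in the platform annotation was that gene's. Of the 40 genes, 39 had such a probe set, among 18193 genes on the array, and they were read by 92 probe sets. Ccnb1, a mitotic cyclin, was not measured here. By textbook role, 8 of the measured genes act in G1, 11 in S phase and 16 in G2/M, and 4 are inhibitors of cyclin-dependent kinases.

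Liver RNA was hybridised to 1 Affymetrix array for each strain. The congenic mice carry the Bglu3 locus, a blood glucose locus of mouse chromosome 1, from a donor strain that the labels do not name. The control mice are C57BL/6 mice that lack apolipoprotein E, and the labels do not say whether the congenic mice lack it too. Both strains are labelled hyperglycemic, were weaned at 3 weeks onto chow, and ate a Western diet for 12 weeks from the age of 6 weeks. The sources used here do not give the number of mice behind an array, their sex or the time of day of tissue collection. With 1 array per strain there is no spread between animals, so every difference below describes 2 arrays and carries no test and no standard error.

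Cells enter the division cycle when D cyclins with Cdk4, and then E cyclins with Cdk2, inactivate the retinoblastoma protein and free E2F transcription factors, which switch on genes for DNA replication. Later, cyclin A and cyclin B with Cdk1 drive entry into mitosis, and many genes of this stage are held silent in resting cells by the DREAM complex, which binds a promoter element called CHR. Cdkn1a and Cdkn1b encode the inhibitors p21 and p27. Most hepatocytes of an adult liver rest outside the cycle and return to it after injury or loss of tissue, while blood cell precursors divide all the time.

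Several mitotic genes were higher in the congenic liver, while Kif18b, Rrm2, Foxm1 and the inhibitor gene Cdkn1a were lower. A gene was represented by its brightest probe set, differences are log2(intensity + 5) of the congenic minus the control array, and a gene was counted when they differed by 1.5-fold or more, which is 0.58 or more on the log2 scale. A gene was called expressed when that probe set reached the median intensity of its array, 19.3 in congenic and 19.7 in control liver, on at least 1 array. This held for 30 of the 39 genes, of which 9 were higher and 4 lower by 1.5-fold, beside 7.58% higher and 5.27% lower among all 12619 expressed genes. The median difference was 0.46 over these 30 genes and 0.04 over all expressed genes. However, 6 genes (E2f1, Mki67, Ccnb2, Top2a, Birc5 and Aurkb) passed this filter through the congenic array alone and Kif18b through the control array alone, so the direction of their difference was largely set by how they passed and cannot be read as support. Over all 39 measured genes 9 were higher and 7 lower, beside 8.78% and 8.06% of all genes, and among the 23 expressed on both arrays 4 were higher and 3 lower, beside 5.74% and 3.31%. The shares counted also run higher among dim genes, at 11.6% higher and 8.89% lower of expressed genes with a mean intensity under 100, a bound chosen after the values were seen. Of the 30 expressed genes, 19 lay under that bound, 9 of them higher and 2 lower. These include E2f1, Mki67, Ccnb2, Top2a and Aurkb on the higher side and Kif18b on the lower, which passed through 1 array alone. The counts under the bound can therefore not be read as an excess either.

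**Figure D1:**
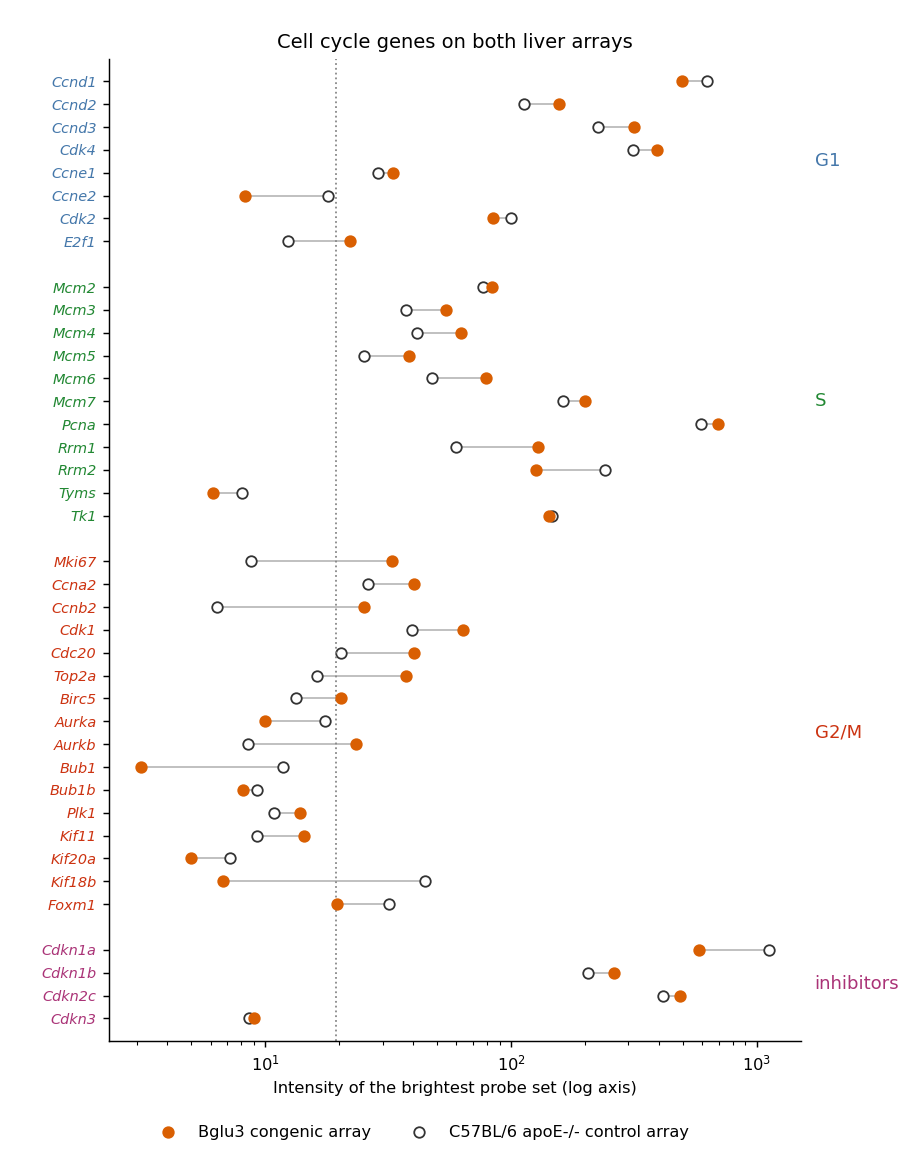
Intensity of the brightest probe set of each of the 39 measured genes (log axis), with the Bglu3 congenic array as filled points and the C57BL/6 apoE-/- control array as open points, grouped by phase. The dotted line marks the median intensity of the arrays (19.3 and 19.7), below which most of the G2/M genes lie on the control array, and the widest gaps are those of Kif18b, Mki67, Ccnb2 and Bub1.

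On their brightest probe sets most expressed G1 genes differed by less than 1.5-fold, and the D cyclins did not move one way. Ccnd1, the D cyclin best known from proliferating hepatocytes, had an intensity of 495.0 in congenic and 628.7 in control liver (log2 difference -0.34). It was lower on all 3 of its probe sets, which lay between -0.45 and -0.34. Ccnd2, a D cyclin prominent in blood cells, had an intensity of 157 in congenic and 113 in control liver (log2 difference 0.46). All 7 of its probe sets were higher on the congenic array, and the 6 expressed ones ranged from 0.15 to 0.97. Its probe sets therefore spread from well inside 1.5-fold to nearly 2-fold, and the brightest stayed inside. Those at 0.59, 0.70, 0.73 and 0.97 were past 1.5-fold, as was the mean of the expressed ones (0.60). Ccnd3 had 316 in congenic and 226 in control liver (0.48), while its other probe sets lay at -0.37 and 0.02.

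The kinases and the E cyclins stayed within 1.5-fold where they were expressed. Cdk4, the partner of the D cyclins, had 394 in congenic and 315 in control liver (log2 difference 0.32), with all 3 probe sets between 0.23 and 0.35. Cdk2, the partner of the E cyclins, had 84.7 in congenic and 99.8 in control liver (-0.23). Ccne1 had 33.0 in congenic and 28.9 in control liver (0.16). The second E cyclin gene was dim on both arrays, since Ccne2 had 8.25 in congenic and 18.0 in control liver (-0.80) and was below the filter. E2f1, an activating E2F factor, had 22.2 in congenic and 12.4 in control liver (0.64), just past 1.5-fold, and its dimmer probe sets lay at -0.86 and 0.00. Over the 7 expressed G1 genes the median difference was 0.32. By 1.5-fold 1 was higher and 0 lower, beside 7.58% and 5.27% of all expressed genes.

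Genes of the replicative helicase were all higher in the congenic liver, mostly by less than 1.5-fold. The 6 genes Mcm2 to Mcm7 encode the ring that is loaded on DNA before S phase and unwinds it. Their brightest probe sets differed by 0.12 to 0.67 on the log2 scale, with a median of 0.51. Of their 15 expressed probe sets 14 were higher, and of all 19, dim ones included, 15 were. Mcm6 was past 1.5-fold with 79.1 in congenic and 47.7 in control liver (log2 difference 0.67). Its second expressed probe set, which passed the filter through the congenic array alone, gave 0.69. Mcm4 lay just inside with 62.3 in congenic and 41.3 in control liver (0.54), and its other probe set gave 0.53. These genes are thus examples of probe sets that gave nearly the same difference. Mcm5 had 38.4 in congenic and 25.1 in control liver (0.53), with its other expressed probe set at 0.19. Mcm3 had 54.5 in congenic and 37.3 in control liver (0.49). Its other expressed probe sets lay at 0.20 and 1.01, the last having passed the filter through the congenic array alone. Mcm7 had 200.3 in congenic and 163 in control liver (0.29), and the exception among the expressed probe sets was one of Mcm7 at -0.40. The lowest difference was that of Mcm2, with 83.7 in congenic and 76.9 in control liver (0.12).

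The subunit genes of ribonucleotide reductase, the enzyme that makes deoxynucleotides, lay on opposite sides. Rrm1, the large subunit, had an intensity of 129 in congenic and 59.7 in control liver (log2 difference 1.05, 2.07-fold). Its other 2 probe sets were below the filter and lay at -0.03 and 0.25. Rrm2, the small subunit whose level follows S phase, had 127 in congenic and 242 in control liver (-0.90, 1.87-fold lower in the congenic). All 3 of its probe sets were expressed and lower, at 52.0 in congenic against 145 in control liver for the one that differed most (-1.39) and 23.3 against 35.3 for the one that differed least (-0.51). So the lower Rrm2 was seen on each of its probe sets, and the higher Rrm1 rested on 1. The other genes of this group differed little. Pcna, the sliding clamp of DNA polymerase, had 696 in congenic and 592 in control liver (0.23). Tk1, thymidine kinase, had 143 and 146 (-0.04). Tyms, thymidylate synthase, was below the filter on all 4 of its probe sets, the brightest at 6.12 in congenic and 8.06 in control liver (-0.23). Over the 10 expressed S phase genes the median difference was 0.39. By 1.5-fold 2 were higher and 1 lower, beside 7.58% and 5.27% of all expressed genes.

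The promoters of Rrm1 and Rrm2 are shown because both genes serve one enzyme and differed in opposite directions. The stretches run from 130 bases before to 20 bases after the annotated start (RefSeq, GRCm38.p6), on the plus strand at chr7:102441565-102441714 for Rrm1 and chr12:24708124-24708273 for Rrm2. Capitals mark CCAAT boxes (CCAAT) and E2F core matches (TTCCCGC, or TTCGCGC, or TTGCCGC, or TTGGCGC), each searched on both strands.
Rrm1: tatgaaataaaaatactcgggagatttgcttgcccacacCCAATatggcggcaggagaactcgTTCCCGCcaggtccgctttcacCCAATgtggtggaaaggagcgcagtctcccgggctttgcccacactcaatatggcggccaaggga
Rrm2: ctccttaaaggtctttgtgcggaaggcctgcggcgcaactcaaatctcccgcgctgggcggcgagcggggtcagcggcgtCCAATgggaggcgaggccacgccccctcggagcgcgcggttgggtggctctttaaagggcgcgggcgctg
Rrm1 had CCAAT boxes 91 and 45 bases before the start with the E2F match 67 bases before it, between them. Rrm2 had a CCAAT box 50 bases before the start, and its E2F match lay 235 bases before it, outside the stretch printed. RefSeq promoters of 250 bases before to 50 after the start were matched to 32 of the 40 genes, and a gene counted when any of its starts held the motif. The E2F match was found in 6 of 10 S phase genes (60%) and 3 of 13 G2/M genes (23.1%), beside 9.57% of all 32851 promoters of the table. A CCAAT box was found in 25 of the 32 genes (78.1%), beside 37.4% of all promoters. Matches of CCAAT and E2F overlapped in the promoters of 2 genes, Mcm7 and Ccnb1. A match describes letters of the C57BL/6J reference and does not show that a factor binds there.

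G2/M genes held the largest differences of the set, in both directions. Mki67, the proliferation antigen Ki-67, had an intensity of 32.8 in congenic and 8.71 in control liver (log2 difference 1.46, 2.75-fold). Ccnb2, a B cyclin, had 25.1 in congenic and 6.38 in control liver (1.40, 2.65-fold). Top2a, the topoisomerase that untangles chromosomes, had 37.5 in congenic and 16.2 in control liver (log2 difference 1.0), while its other probe sets, below the filter, lay at -0.79 and 0.06. All of these were dim, and on the control array each lay below the median intensity. Aurkb, the kinase of the chromosomal passenger complex, was as dim, with 23.4 in congenic and 8.54 in control liver (1.07). It too lay below the median on the control array, and its second probe set, below the filter on both arrays, gave 1.03. Cdk1, the mitotic kinase, was brighter, with 63.9 in congenic and 39.5 in control liver (0.63). Cdc20, an activator of the anaphase-promoting complex, had 40.2 in congenic and 20.3 in control liver (0.84), but its other probe sets gave 0.30 and -0.13. Mki67, Ccnb2 and Cdk1 each had a single probe set, so no second reading of them was at hand.

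Members just inside 1.5-fold on the higher side were Ccna2, cyclin A2, with 40.4 in congenic and 26.2 in control liver (log2 difference 0.54) and -0.12 on a probe set below the filter, and Birc5, survivin, with 20.3 and 13.4 (0.46). Kif18b, a kinesin that shortens astral microtubules, went the other way and had the largest difference of all members. Its single probe set had an intensity of 6.75 in congenic and 44.6 in control liver (-2.08, 4.22-fold lower in the congenic). Foxm1, the transcription factor that activates many mitotic genes, was lower as well, with 19.6 in congenic and 31.9 in control liver (-0.59), just past 1.5-fold. All 4 of its probe sets were lower, from -0.65 to -0.12, and only the brightest was expressed. Median centring, quantile normalization and removal of a loess trend each left Foxm1 inside 1.5-fold and changed the call of no other expressed member.

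The remaining 6 measured G2/M genes were below the filter and are given for completeness. Kif11, the kinesin that pushes spindle poles apart, was higher on all 3 probe sets, from 0.11 to 1.25, the last with an intensity of 17.3 in congenic and 4.36 in control liver. Bub1, a checkpoint kinase, had 3.11 in congenic and 11.8 in control liver on its brightest probe set (log2 difference -1.05) and no difference on the other (0.00). Aurka, the kinase of the spindle poles, had 9.99 in congenic and 17.6 in control liver (-0.59), and its other probe set went the other way (0.34). At such intensities a difference of a few units is a large fold. Plk1, a mitotic kinase, lay at 0.25, Bub1b, of the spindle checkpoint, at -0.12 and Kif20a, a kinesin of cytokinesis, at -0.28. Over the 10 expressed G2/M genes, 6 were higher and 2 lower by 1.5-fold, beside 7.58% and 5.27% of all expressed genes. Their median was 0.73, but 5 of the 10 had passed through the congenic array alone. Over all 16 measured ones 6 were higher and 4 lower with a median of 0.46, beside 8.78% and 8.06% of all measured genes. Among the 4 expressed on both arrays (Cdk1, Cdc20, Ccna2 and Foxm1), 2 were higher and 1 lower, with a median of 0.58. The shares of all genes expressed on both arrays were 5.74% and 3.31%.

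**Figure D2:**
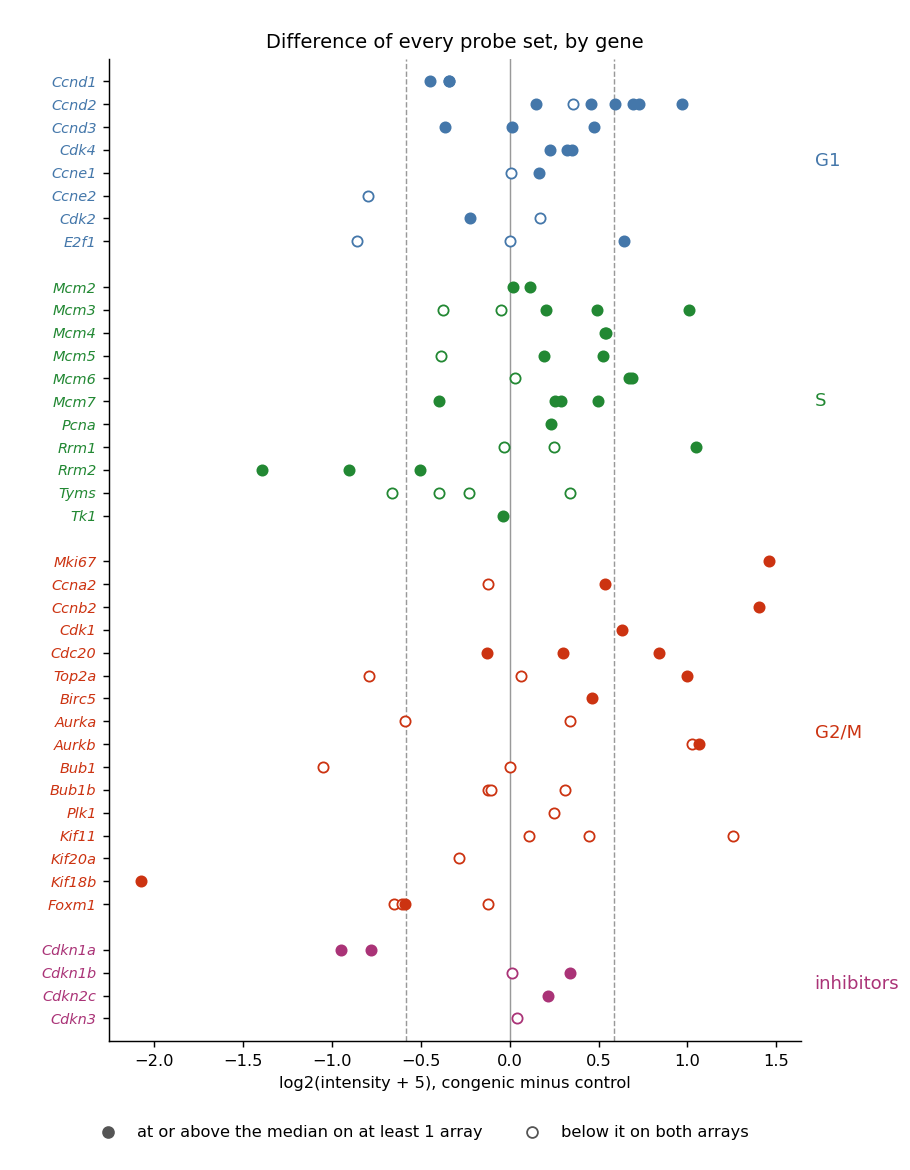
Log2 difference, congenic minus control, of each of the 92 probe sets, 1 row per gene and coloured by phase. Filled points reached the median intensity on at least 1 array, open points on neither, and dashed lines mark 1.5-fold. The 3 probe sets of Rrm2 and both of Cdkn1a lie left of 0, the 7 of Ccnd2 right of it, and Kif18b stands alone at -2.08.

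Promoters of 4 G2/M genes are shown because all 4 carry the same pair of motifs, with Ccnb2, Cdk1 and Top2a higher and Kif18b lower on the arrays. The stretches again run from 130 bases before to 20 after the start in GRCm38.p6, all on the minus strand, at chr9:70421535-70421684 for Ccnb2, chr10:69352893-69353042 for Cdk1, chr11:99024170-99024319 for Top2a and chr11:102925105-102925254 for Kif18b. Capitals mark CCAAT boxes, E2F core matches and CHR elements (TTTGAA or TTCGAA), on both strands.
Ccnb2: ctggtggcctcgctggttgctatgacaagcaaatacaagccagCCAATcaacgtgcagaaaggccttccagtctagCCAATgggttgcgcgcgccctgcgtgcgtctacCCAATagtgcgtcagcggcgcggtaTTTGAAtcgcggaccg
Cdk1: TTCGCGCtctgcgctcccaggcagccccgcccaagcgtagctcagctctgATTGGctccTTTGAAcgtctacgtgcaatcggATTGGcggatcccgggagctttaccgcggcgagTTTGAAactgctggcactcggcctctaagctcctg
Top2a: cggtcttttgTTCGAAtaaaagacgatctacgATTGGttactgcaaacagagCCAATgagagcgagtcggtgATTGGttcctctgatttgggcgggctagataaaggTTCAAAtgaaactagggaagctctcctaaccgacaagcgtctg
Kif18b: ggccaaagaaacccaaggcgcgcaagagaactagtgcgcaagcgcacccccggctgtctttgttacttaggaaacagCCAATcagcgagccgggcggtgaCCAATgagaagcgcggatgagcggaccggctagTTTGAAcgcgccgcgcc
Ccnb2 had CCAAT boxes 87, 54 and 21 bases before the start and a CHR match that begins at base 5 after it. Kif18b had a closely similar layout, with CCAAT boxes 53 and 30 bases before the start and a CHR match that begins at base 4 after it. Cdk1 had a CHR match 15 bases before the start and Top2a had one 23 bases before it on the other strand. Both a CHR match and a CCAAT box were found in 11 of the 13 G2/M genes with a promoter (84.6%), beside 7.52% of all promoters, and in 2 of 10 S phase genes (20%) and 0 of 5 G1 genes. A CHR match alone was held by 19.2% of all promoters. Among the 11 were genes that were higher (Mki67, Ccnb2, Cdk1, Cdc20, Top2a) and genes that were lower (Kif18b, Bub1, Aurka) by 1.5-fold. Only Cdk1 and Cdc20 of these were expressed on both arrays and Bub1 and Aurka on neither, so nothing is read here about the motifs and the direction.

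**Figure D3:**
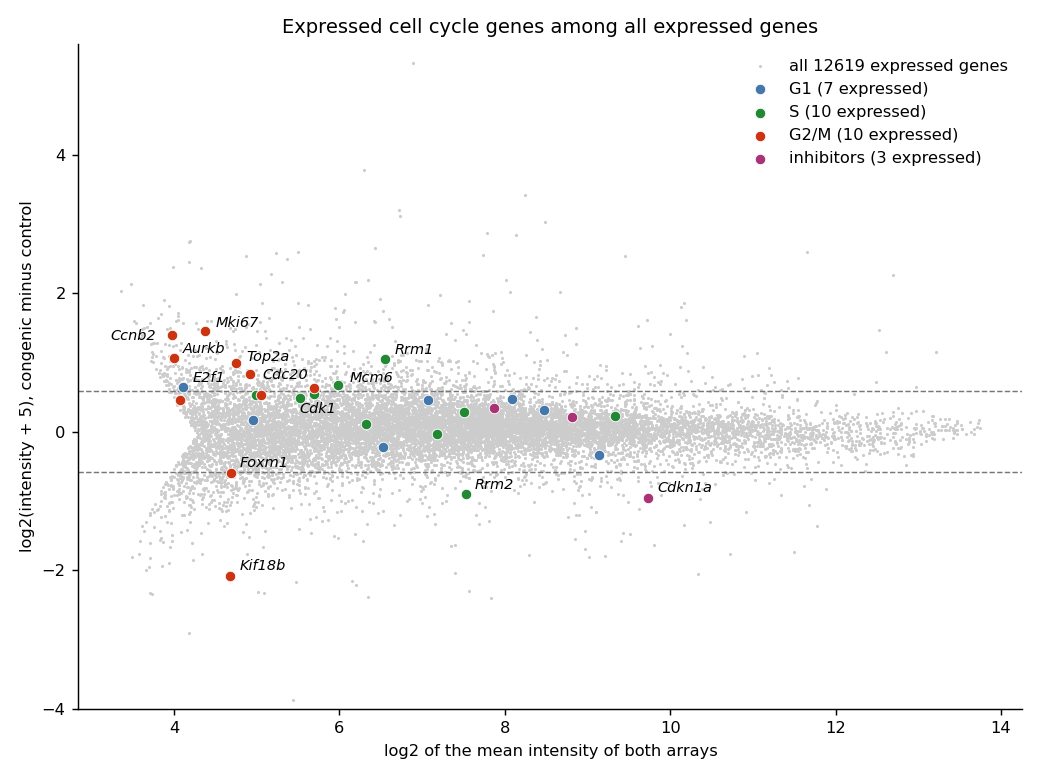
Log2 difference, congenic minus control, against the log2 mean intensity of both arrays for the 12619 expressed genes (grey) and the 30 expressed cell cycle genes (coloured by phase, named where past 1.5-fold). Dashed lines mark 1.5-fold, the grey cloud widens toward dim genes, and 11 of the 13 named genes lie under a mean intensity of 100, with Rrm2 and Cdkn1a above it.

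Among the inhibitors, Cdkn1a was lower and the others stayed within 1.5-fold. Cdkn1a, which encodes p21, had an intensity of 580 in congenic and 1126 in control liver (log2 difference -0.95, 1.93-fold lower in the congenic). Its second probe set had 568 in congenic and 980 in control liver (-0.78), so both lay past 1.5-fold, at intensities far above the filter. Cdkn1b, which encodes p27, had 262 in congenic and 206 in control liver (0.34). Cdkn2c, an inhibitor of Cdk4 and Cdk6, had 485 and 417 (0.22). Cdkn3, a phosphatase that acts on cyclin-dependent kinases, was below the filter with 8.97 in congenic and 8.60 in control liver (0.04). Cdkn1a is also a target of p53, and p53 targets as a list did not lie to one side. Of 23 expressed p53 targets 2 were higher and 3 lower by 1.5-fold, beside 7.58% and 5.27% of all expressed genes. Their median was 0.09. Trp53inp1, which promotes p53 activity, differed most, with 1323 in congenic and 4435 in control liver (-1.74), and Cdkn1a was the next lowest. Eda2r, a death receptor that passed the filter through the congenic array alone, and Pmaip1, which encodes Noxa, were the highest at 1.0 each. Mdm2, which marks p53 for degradation, lay at 0.38 and, on its other expressed probe set, at -0.24.

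Other genes of the cycle, not among the 40, were also found on both sides of 0. Of 34 other expressed mitotic genes 8 were higher and 3 lower by 1.5-fold, beside 7.58% and 5.27% of all expressed genes. Their median was 0.17. However, 5 of the 8, the named ones included, passed the filter through the congenic array alone. Among the 26 expressed on both arrays 3 were higher and 2 lower with a median of -0.11, beside 5.74% and 3.31% of all such genes. Over all 52 measured ones 15 were higher and 3 lower with a median of 0.23, beside 8.78% and 8.06% of all measured genes. Cdca5, which encodes sororin of sister chromatid cohesion, had 56.9 in congenic and 9.08 in control liver (log2 difference 2.14), with another probe set at -0.19. Ttk, a checkpoint kinase, had 21.2 in congenic liver and, at a low value that recurs in the table, 1 in control liver (2.13). Ncapg, a condensin subunit, had 27.0 and 5.58 (1.60). On the other side, Wee1, the kinase that restrains Cdk1, had 63.0 in congenic and 275 in control liver (-2.04), with its other expressed probe set at -0.01. Cenpf, a kinetochore protein that passed through the control array alone, lay at -0.75. Higher and lower genes were thus both found here too, with more higher than lower in the counts above. With the 75th percentile as the filter, 0 were higher and 2 lower.

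Of 38 other expressed replication genes 6 were higher and 1 lower by 1.5-fold, with a median of 0.08. For this list and the next, the shares among all expressed genes were 7.58% higher and 5.27% lower. Rfc3, a subunit of the clamp loader, had 127 in congenic and 61.9 in control liver (log2 difference 0.98), and Orc6, of the origin recognition complex, 69.8 and 33.7 (0.95). Pole, the catalytic subunit of DNA polymerase epsilon, had 9.53 in congenic and 22.4 in control liver (-0.92), and Timeless, of the fork protection complex, lay at -0.53. Both passed the filter through the control array alone. Among the 35 expressed on both arrays 6 were higher and 0 lower, beside 5.74% and 3.31% of all such genes. Genes of the E2F, RB and DREAM complexes, which include the member E2f1, had a median of 0.30 over 17, with 3 higher and 0 lower by 1.5-fold. The highest was Lin9, a core subunit of DREAM, at 37.7 in congenic and 19.6 in control liver (0.80), followed by the RB relative Rbl1 (0.67), and the lowest were E2f8 (-0.26) and E2f5 (-0.21). Lin9 and E2f1 passed the filter through the congenic array alone, and among the 15 expressed on both arrays Rbl1 was the 1 counted higher. With a pseudocount of 20 none of the 17 was. The differences were thus small, with 13 of the 17 genes above 0.

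The kinesin family showed no common difference beside Kif18b. Of 23 expressed kinesins, which include Kif18b, 1 was higher and 3 lower by 1.5-fold, with a median of 0.01. For this list and the next, the shares among all expressed genes were again 7.58% higher and 5.27% lower. Kif15, a spindle kinesin, was the second lowest, with 8.50 in congenic and 26.2 in control liver (log2 difference -1.21), having passed, as Kif18b did, through the control array alone, and Kif12 lay at -0.59. Kif23, of the central spindle (passed through the congenic array alone), and Kif21b were the highest at 0.60 and 0.48. Other G1 genes and inhibitors, which include the member Ccnd2, had a median of 0.13 over 22, with 2 higher and 1 lower. Jun, a subunit of AP-1, had 1163 in congenic and 402 in control liver (1.52), with its probe sets at 1.45 and 1.52. Skp2, which marks p27 for degradation, lay at 0.64 but at -0.71 on its other expressed probe set. Ccng2, a cyclin that slows the cycle, lay at -0.85, and Btg1, which restrains proliferation, at -0.23, with an expressed probe set of Btg1 at 0.46.

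Chromosome 1 carries the locus for which the congenic mice were bred, and few of the cell cycle genes lie on it. The 39 measured genes lie on 17 chromosomes, and on chromosome 1 are Mcm3 and Mcm6, with the differences given above. Together with the other cell cycle lists, 17 genes with a probe set lie there and 14 were expressed, of which Mcm6 and Lin9 were higher and Cenpf was lower by 1.5-fold. The shares among all expressed genes were 7.58% higher and 5.27% lower. On their brightest probe sets the other expressed ones ranged within 1.5-fold. These were the mitotic genes Aspm (0.52) and Nek2 (0.31, and -0.48 on its other expressed probe set). The replication genes among them were Dtl (-0.49), Prim2 (-0.13, and up to 0.76 on other probe sets) and Orc2 (0.05, and up to 1.06 on other expressed probe sets). The rest were the kinesins Kif21b (0.48) and Kif26b (0.09), and the p53 targets Btg2 (0.44), Phlda3 (0.39) and Ercc5 (0.12). Below the filter, Kif14, Kif1a and Nuf2 lay at -0.12, -0.39 and 0.00. Cell type markers on chromosome 1 were Marco (1.85), Rgs5 (1.14), Col3a1 (0.97), Cxcr2 (0.12), Cps1 (0.03), Des (-0.16), Fcgr2b (-0.17) and Cd247 (-0.73). No coordinates are given for these genes, so how near they lie to the locus is not told here.

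Neutrophil and macrophage markers were mostly higher in the congenic liver, and 6 of 12 stellate cell markers were higher too. Lymphoid and erythroid markers were found on both sides. The part of any of these cells in the differences of the cell cycle genes was not tested. Counts are at 1.5-fold, to be set beside the 7.58% higher and 5.27% lower of all expressed genes. Among genes expressed on both arrays these shares were 5.74% and 3.31%, and over all measured genes 8.78% and 8.06%. Of 14 expressed neutrophil and granulocyte precursor markers 10 were higher and 0 lower, and the 14 measured ones summed to an intensity of 12992 in congenic and 5329 in control liver. Camp, a granule peptide, differed most, with 151 in congenic and 6.35 in control liver (log2 difference 3.78), followed by Prtn3 (3.20), Mpo (2.59), Ngp (2.55), Ltf (2.27), S100a8 (1.61), S100a9 (1.41) and Lcn2 (1.16), and the lowest were Mmp9 (-0.31) and Csf3r (0.01). Camp, Prtn3, Mpo and Ltf passed the filter through the congenic array alone, and of the 10 markers expressed on both arrays 6 were higher and 0 lower. Macrophage markers were higher in 9 of 14 and lower in 0, with sums of 35143 in congenic and 23552 in control liver. The highest were Marco (1.85), Timd4 (1.66) and Ccr2 (1.0, but as low as -0.34 on its expressed probe sets). The lowest were Cd5l (0.19) and Lyz2 (0.25). B and plasma cell markers had 4 of 10 higher and 2 lower. Of the 9 expressed on both arrays 4 were higher and 1 lower, since Pax5 passed the filter through the control array alone. Over all 13 measured ones 7 were higher and 2 lower. Jchain, the joining chain of antibodies, had 391 in congenic and 49.4 in control liver (2.87), Ighm, the heavy chain of IgM, 429 and 89.8 (2.19) and Cd79b 110 and 23.9 (1.99), while Pax5 (-1.30) and Cd22 (-0.66) were the lowest. Their sums of 8307 in congenic and 7603 in control liver consist mostly of Sdc1 and Xbp1, which are bright and lay at 0.12 and -0.20. T and NK cell markers had 4 of 10 higher and 2 lower, with sums of 492 in congenic and 425 in control liver, the highest Nkg7 (1.05) and Cd3g (0.88) and the lowest Prf1 (-2.32) and Cd247 (-0.73). Prf1 passed the filter through the control array alone, and of the 9 expressed on both arrays 4 were higher and 1 lower. Over all 14 measured ones 5 were higher and 2 lower. Erythroid markers had 2 of 11 higher, Klf1 (0.88) and Gata1 (0.59), and 2 lower, Ermap (-0.75) and Car1 (-0.66), with sums of 1317 in congenic and 1407 in control liver. Gata1 passed the filter through the congenic array alone, and of the 9 expressed on both arrays 1 was higher and 2 lower. Stellate cell markers had 6 of 12 higher and 0 lower, with sums of 9777 in congenic and 7541 in control liver, from Rgs5 (1.14) and Col1a1 (1.12) down to Reln (-0.13) and Des (-0.16). Endothelial markers had 0 of 12 higher and 1 lower, with sums of 4778 in congenic and 4409 in control liver. They ranged from Cdh5 (0.53, and 1.16 on its other probe set) and Kdr (0.51) down to Tie1 (-0.29) and Lyve1 (-0.65). Cholangiocyte markers had 0 of 4 higher and 0 lower, from Krt7 (0.31) and Krt19 (-0.04) down to Epcam (-0.26) and Sox9 (-0.50). The liver label was borne out by hepatocyte markers, since all 14 were expressed, and all were within 1.5-fold on their brightest probe sets. Albumin (Alb) had 14121 in congenic and 12910 in control liver. They ranged from Ambp (0.19) and Fgb (0.17) down to Apob (-0.04) and Hnf4a (-0.26). Other expressed probe sets reached 0.64 for Apob and -0.59 for Hnf4a. In bulk RNA a difference in the number of cells of a type cannot be told apart from a difference in RNA per cell.

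**Figure D4:**
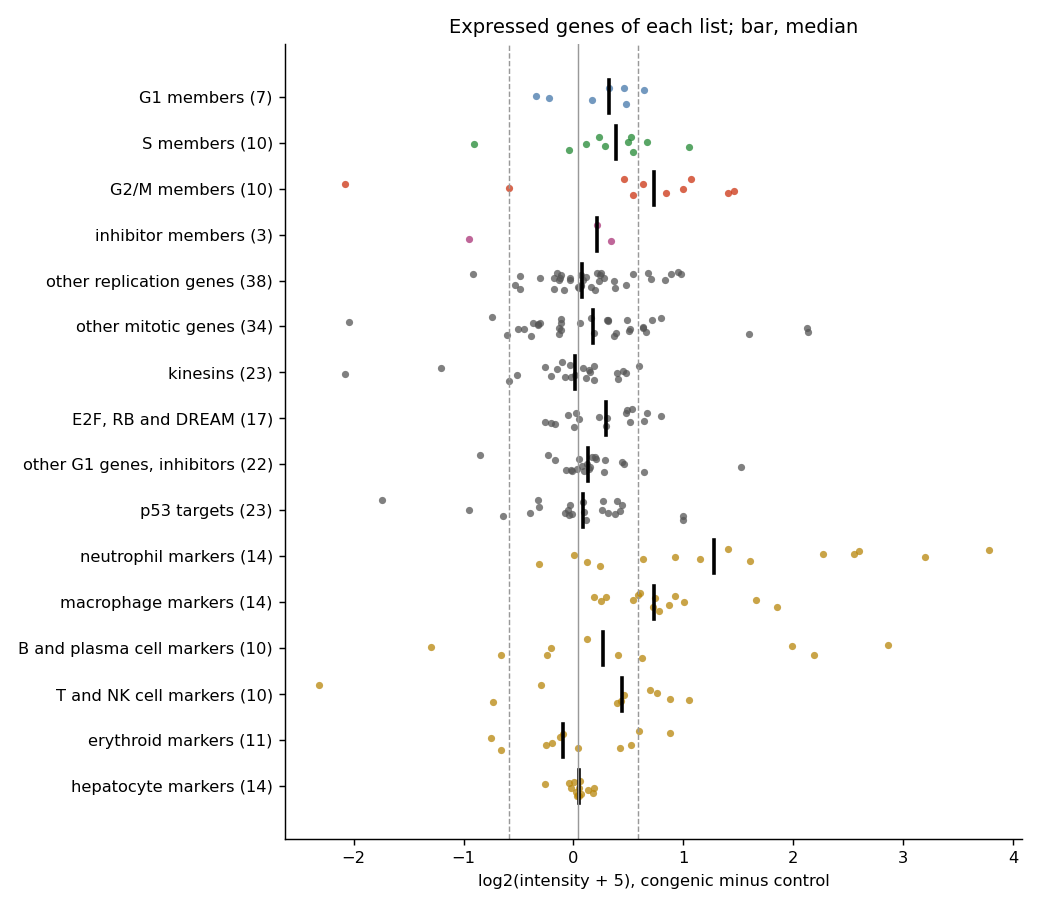
Log2 difference, congenic minus control, of each expressed gene (points) in the 4 groups of cell cycle genes, the 6 other cell cycle lists and 6 lists of cell type markers, with the number of expressed genes in brackets and the median as a black bar. Stellate, endothelial and cholangiocyte markers are not plotted. The vertical line is the median of all expressed genes (0.04) and dashed lines mark 1.5-fold. The G2/M bar at 0.73 rests on 10 genes of which 5 passed the filter through the congenic array alone (median 0.46 over all 16), the neutrophil bar lies at 1.28, and the hepatocyte points lie close to the line.

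Probe sets of one gene give a measure of disagreement within these arrays, though not of disagreement between animals. The SD of the log2 difference among expressed probe sets of one gene was 0.31 over the 13 cell cycle genes with at least 2, and 0.34 over the 5195 such genes of the array. In 10 of the 13 all expressed probe sets had 1 sign, as in 52.3% of the 5195. The exceptions were Ccnd3, Mcm7 and Cdc20. Across all probe sets the count was 17 higher and 14 lower of 92 by 1.5-fold, beside 8.86% and 9.10% of all probe sets with a single symbol. Across the 55 expressed ones it was 15 higher and 6 lower, beside 7.22% and 6.05%. With expression on both arrays it was 8 higher and 5 lower. The direction of the others was largely set by how they passed the filter, so the counts of expressed probe sets cannot be read as an excess. By group, the expressed probe sets counted higher were 5 of 18 in G1, all of Ccnd2 and E2f1, 4 of 21 in S phase and 6 of 12 in G2/M. Those counted lower were 0, 2 and 2. Of the G2/M probe sets counted higher, those of Mki67, Ccnb2, Top2a and Aurkb passed through the congenic array alone. At 2-fold, 4 of the 30 expressed genes (Mki67, Ccnb2, Aurkb and Rrm1) were higher and 1 (Kif18b) was lower, beside 1.99% and 1.46% of all expressed genes. All but Rrm1 had passed the filter through the array on which they were brighter, so they cannot be read as an excess. Among the 23 genes expressed on both arrays 1 was higher and 0 lower at 2-fold.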

How the data were processed

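Liver RNA of 2 strains was measured, with 1 array each. Per the labels, 8 µg of total RNA gave biotinylated cRNA for Affymetrix arrays. The table deposited by the authors lists a linear intensity for each of 45101 probe sets on each array. The sources used here do not tell how probes were summarized and arrays scaled. The medians (19.3 for congenic and 19.7 for control liver) differed by -0.03 on the log2 scale, and intensities were used as deposited.

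Of the probe sets, 34945 carried a single symbol in the annotation of the platform and 64 were array controls, which were left out. Differences were computed as log2(intensity + 5), a scale that understates differences of dim genes. Precision is limited by the single array per strain, so no test was made. Members are all named. Of each other list, the 2 highest, the 2 lowest and genes past 2-fold are named, and genes on chromosome 1. Mdm2, Sdc1 and Xbp1 were named after their values were seen. The members and lists were chosen with earlier results of these data known. The calculation was tested on simulated data. Alternatives were 3 scalings, pseudocounts of 1 and 20, other filters and other rules for probe sets. Chromosomes and promoters come from RefSeq GRCm38.p6. Python 3.11.15 and pandas 2.3.3 were used.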

Additional observations from a re-analysis of the deposited data

How the results depend on the processing

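The direction of all 30 expressed cell cycle genes was the same under median centring, quantile normalization and removal of a loess trend. The count of 9 higher genes was 5 with a pseudocount of 20, 1 with the 75th percentile as the filter, 4 with expression on both arrays and 4 at 2-fold. The count of 4 lower genes was 7 without a filter, 2 with the 75th percentile and 1 at 2-fold. Of probe sets, 15 higher became 9 with a pseudocount of 20, 4 with the 75th percentile, 8 with expression on both arrays, 8 with plain _at probe sets and 5 at 2-fold, and 6 lower became 14 without a filter and 2 at 2-fold. The G2/M median of 0.73 was 0.54 with a pseudocount of 20, 0.46 without a filter, 0.58 with expression on both arrays, 0.58 with the mean of a gene's expressed probe sets and 0.54 with plain _at probe sets. The S phase median of 0.39 was 0.23 with the 75th percentile and 0.23 with plain _at probe sets. The median of other mitotic genes (0.17) was -0.083 with the 75th percentile, -0.11 with expression on both arrays and -0.12 with plain _at probe sets. That of other replication genes was 0.18 and that of p53 targets -0.022 with the 75th percentile, and that of other G1 genes and inhibitors 0.036 with the mean of probe sets. Stricter filters test fewer genes; otherwise the cause was not tested. Kif18b lay between -2.56 (pseudocount 1) and -1.27 (pseudocount 20), Mki67 at 0.88 and Ccnb2 at 0.77 with a pseudocount of 20, and Cdc20 at 0.34 with the mean of its probe sets. Dim genes are limited by the low signal and the pseudocount. No paired analysis was possible because each strain has 1 array.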
